A study of Drosophila melanogaster with 48 samples.

Results

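Transcripts of 9 antioxidant defence genes were followed in the abdominal fat body of Drosophila melanogaster on a control and on a restricted diet over a day. The genes were the superoxide dismutases Sod1, Sod2 and Sod3, the catalase Cat, the peroxiredoxin Jafrac1, both subunits of glutamate-cysteine ligase, Gclc and Gclm, and the regulators Keap1 and cnc. They were listed by symbol, with earlier results of these data known. All 9 of the 9 were found among the 14205 genes of the deposited tables. Jafrac1 is now named Prx2 in the annotation. All 9 passed the filter on low counts that left 10070 genes to be tested.

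Superoxide is formed as a by-product of respiration and by dedicated oxidases. Superoxide dismutases turn it into hydrogen peroxide, and catalase and peroxiredoxins break the peroxide down. Glutathione, made in a pathway whose rate is set by glutamate-cysteine ligase, is a reserve of reducing power in the cell. The transcription factor CncC, a product of the cnc gene, switches on many detoxification and antioxidant genes, and Keap1 binds it and holds it back. The fly fat body stores fat and glycogen, secretes proteins into the blood and has the functions of liver and adipose tissue.

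All flies were mated females of the strain w1118 (iso31), about 8 days old at collection, under a cycle of 12 h light and 12 h dark at 25 °C. From an age of about 3 days they had been fed for 5 days either a diet of 15% sucrose and yeast (control) or of 5% (restricted). Tissue for RNA was dissected at 12 times of day, 2 h apart and counted as zeitgeber time (ZT) from lights on, with 2 libraries per diet and time, each from the pooled tissue of about 10 flies, so that 24 libraries on each diet entered the comparisons. The tissue was the fat attached to the epidermis of the abdomen, with oenocytes and epidermis included and intestine, ovaries and Malpighian tubules cut away, and the labels number the libraries of each diet and time 1 and 2 without saying what a number shares.

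Total estimated counts ranged from 5815484 to 33485917 per library, and from 7788923 to 14795183 among the replicate 2 libraries. Ribosomal RNA made up 53.8% of the counts in 1 library, the restricted library of ZT2 in replicate 1, and at most 4.80% in the others. Its median was 0.410% on the control and 1.43% on the restricted diet in replicate 1, and 0.367% and 1.06% in replicate 2. Mitochondrial transcripts had medians of 5.49% and 3.75% in replicate 1, and 2.27% and 2.58% in replicate 2. Markers of fat body and oenocytes were abundant. Median levels were 7493 CPM for apolpp and 60176 CPM for Cyp4g1. The fat body gene Fbp1 had a median of only 0.0888 CPM and the epidermal gene y one of 0.0839 CPM. For the 9 genes and related genes CPM are counts scaled to a common library total by the TMM method. Marker levels and summed marker CPM in this paragraph were instead scaled by each library's own total, ribosomal RNA included, without TMM. The scales are therefore not the same. Markers of ovary, which the dissection removed, were present. They summed to between 110 and 3488 CPM on the control diet and between 17.7 and 2067 CPM on the restricted diet, and 8 of the 11 tested were lower on the restricted diet, none higher. None of the 11 was at 0 in all libraries, and Vm32E was at 0 in 7 of 48. The mean log2 CPM of these markers, here called the ovary score, averaged 5.80 on the control and 4.79 on the restricted diet in replicate 1, and 5.53 and 2.01 in replicate 2. Gut markers summed to 11.5 to 5561 CPM on the control diet and to 7.86 to 6303 CPM on the restricted diet. Of the 8, 1 was higher, LManI, which stayed between 6.58 and 25.0 CPM in all libraries. Another 1 was lower, Jon99Fii, which was at 0 in 25 of 48 libraries. Markers of other cells in the preparation also differed between the diets. Higher on the restricted diet were 4 of 6 muscle markers, 3 of 5 hemocyte markers, 3 of 7 fat body markers (with 1 lower), 2 of 4 oenocyte markers and 2 of 5 epidermis markers, and 0 of 5 tubule markers changed. Over all tested genes the diet test called 10.4% higher and 15.4% lower on the restricted diet. The marker lists are short beside that share. In bulk tissue, fewer cells of a type and less RNA per cell cannot be told apart.

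Levels of different genes are compared here in TPM, which is scaled by transcript length. Sod1 had the highest mean over the 48 libraries (1798 ± 444 TPM, SD), followed by Cat (1432 ± 211). Jafrac1 came next with 318 ± 87.3 TPM, then Gclm with 188 ± 52.6, Sod2 with 144 ± 26.1, Sod3 with 66.1 ± 52.4, cnc with 60.1 ± 13.6 and Gclc with 37.0 ± 9.26. Keap1 was the lowest, with 9.30 ± 2.28 TPM. The ranges of Sod1 (843 to 2591 TPM) and Cat (837 to 1899) overlapped, and Cat lay above Jafrac1 (186 to 642) in every library. Means of Sod3 and cnc differed by less than the SD of either. The smallest estimated count of any member in a library was 139, for Keap1.

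With all 48 libraries the diet test called 3 of the 9 genes. Cat, the enzyme that splits hydrogen peroxide in peroxisomes, rose on the restricted diet by 1.25-fold. Jafrac1, a cytosolic peroxiredoxin, fell by 1.19-fold, and Sod3, the secreted superoxide dismutase, fell by 1.48-fold. The other 6 genes did not pass the test, although Sod1 and Gclm had an unadjusted p under 0.05 as well. Over all tested genes the same test called 25.8% (10.4% higher and 15.4% lower on the restricted diet), so that 3 of 9 is close to the share of the whole table. The median log2 fold change of the 9 members was 0.12, against 0.01 over all tested genes. With the replicate number added to the fit, 6 of the 9 members passed, Sod1, Sod2 and Gclm being added, beside 38% of all genes. In replicate 1 alone 0 of the 9 passed, beside 0.0199% of all genes. With scores of ovary and gut markers as covariates 0 of the 9 passed, beside 0.0596%.

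**Figure D1:**
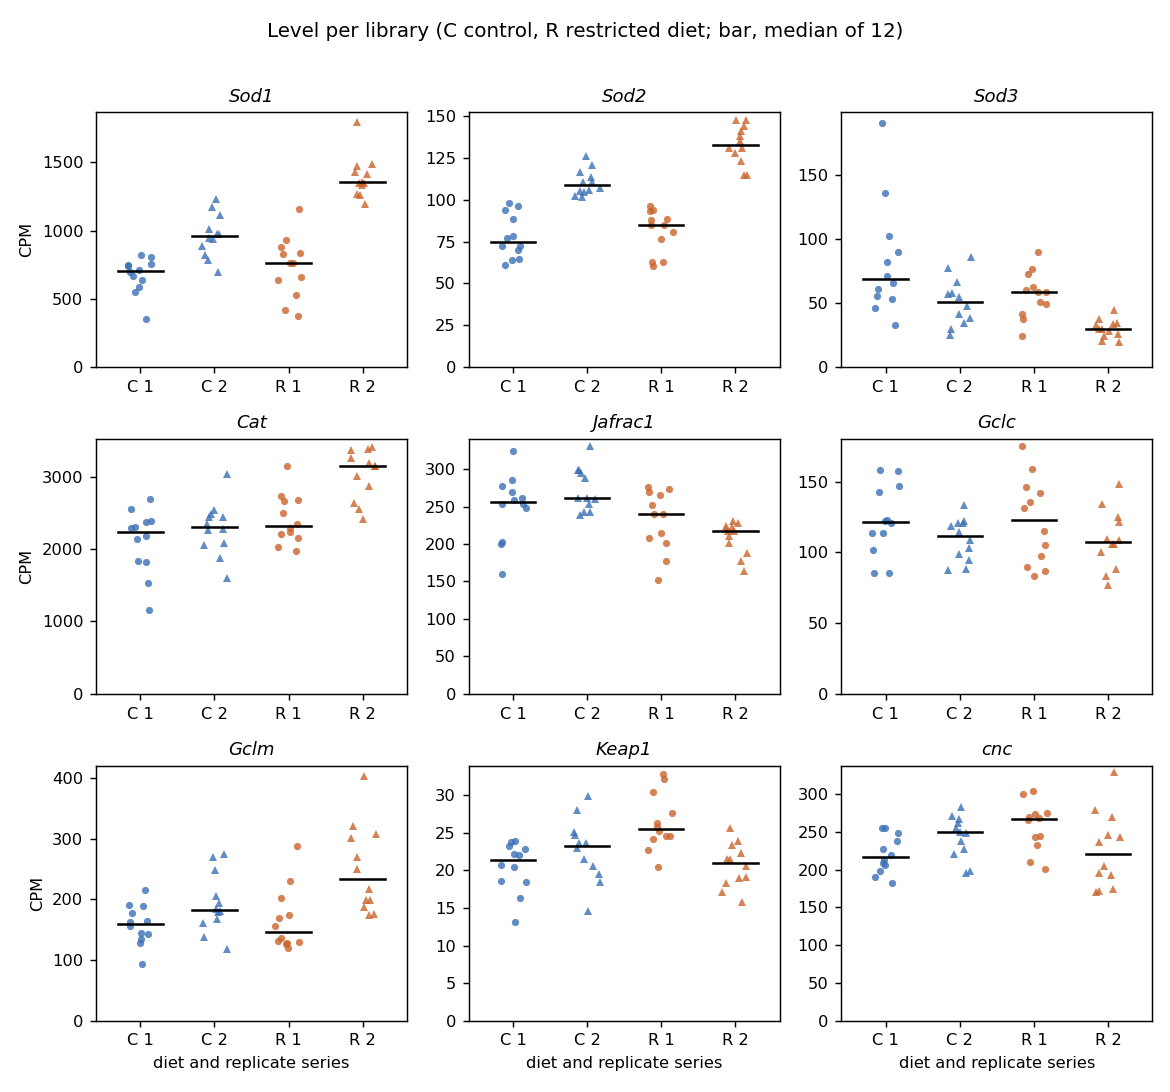
CPM of the 9 genes in each library (points) by diet and replicate series, with 12 libraries in each column and a bar at their median; the axes start at 0. In the replicate 2 series Jafrac1 lies at 238 to 331 CPM on the control diet (C 2) and at 164 to 231 CPM on the restricted diet (R 2), and elsewhere the diets overlap.

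Among the superoxide dismutases, Sod1 (FBgn0003462) encodes the copper and zinc enzyme of the cytosol. It ranged from 352 to 1230 CPM with a median of 797 in the 24 control libraries, and from 376 to 1793 CPM with a median of 1178 in the 24 restricted libraries. The lowest value of each diet came from replicate 1 and the highest from replicate 2, and the diets overlapped. The log2 fold change, restricted over control, was 0.38 ± 0.15 (SE, edgeR quasi-likelihood test, adjusted p = 0.0599), with a 95% interval from 0.08 to 0.68, and the restricted mean was higher at 10 of 12 times. With 1 library left out in turn the adjusted p of Sod1 ran from 0.0233 to 0.115 and passed in 12 of the 48 fits (edgeR). Sod2 (FBgn0010213), the manganese enzyme of mitochondria, ranged from 61.1 to 126 CPM (median 99.7) on the control and from 60.4 to 148 CPM (median 105) on the restricted diet. These ranges overlapped over most of their span. The log2 fold change of Sod2 was 0.19 ± 0.12 (edgeR, adjusted p = 0.226), with a 95% interval from -0.04 to 0.41.

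Sod3 (FBgn0033631), the secreted copper and zinc enzyme, went the other way. On the control diet it ranged from 24.9 to 190 CPM with a median of 57.3, and on the restricted diet from 19.8 to 89.6 CPM with a median of 37.5. The high control values came from replicate 1 at ZT4, ZT24 and ZT2, and the low restricted values from replicate 2, with overlap in between. Its log2 fold change was -0.57 ± 0.19 (edgeR, adjusted p = 0.0262), and the restricted mean was lower at 11 of 12 times, with a log2 difference of -1.20 at ZT24. The call rested on 1 library, since without the control library of ZT4 in replicate 1 the change was -0.46 and missed the threshold (edgeR, adjusted p = 0.0550).

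Cat (FBgn0000261) ranged from 1153 to 3037 CPM with a median of 2277 on the control diet and from 1973 to 3400 CPM with a median of 2671 on the restricted diet. The lowest control values were those of replicate 1 at ZT4 and ZT24, the 3 highest restricted values came from replicate 2, and the ranges overlapped. The log2 fold change was 0.32 ± 0.08 (edgeR, adjusted p = 0.00740), with the restricted mean higher at 11 of 12 times. Differences between the diets were largest at ZT4 (0.69 on the log2 scale) and smallest at ZT22 (-0.03), each from 2 libraries per diet.

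Jafrac1 (FBgn0040309) ranged from 160 to 331 CPM with a median of 260 on the control diet and from 153 to 276 CPM with a median of 218 on the restricted diet. The restricted mean was the lower one at all 12 times. Its log2 fold change was -0.25 ± 0.06 (edgeR, adjusted p = 0.00694), and the difference between diets ran from -0.49 at ZT22 to -0.03 at ZT18. Over all 48 libraries the ranges overlapped. In the replicate 2 series they did not, with the lowest control library at 238 CPM and the highest restricted library at 231 CPM. This was so for 1 of the 9 members and for 0.447% of all tested genes in that series.

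The calls for Cat, Jafrac1 and Sod3 held with DESeq2, with limma on log2 CPM and with limma on log2(TPM + 1). They were lost in replicate 1 alone and with the ovary and a gut marker score as covariates, where edgeR called 0 of the 9 members, and with the scores the change of Sod3 went from -0.57 to -0.02. The TPM scale moved the median log2 difference of all genes from 0.01 to -0.09. It moved the share of calls that were higher on the restricted diet from 40.3% to 16.2%. On that scale the differences were 0.20 for Cat, -0.37 for Jafrac1 and -0.72 for Sod3.

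Glutathione synthesis starts with glutamate-cysteine ligase, of which Gclc is the catalytic and Gclm the modifier subunit. Neither subunit passed the diet test, and the difference between their changes was not tested. Gclc (FBgn0040319) ranged from 85.4 to 158 CPM (median 117) on the control and from 77.1 to 175 CPM (median 109) on the restricted diet. Its log2 fold change was -0.01 ± 0.07 (edgeR, adjusted p = 0.894), with a 95% interval from -0.15 to 0.12, and the restricted mean was higher at 4 of 12 times. Gclm (FBgn0046114) ranged from 93.6 to 276 CPM (median 173) on the control and from 120 to 404 CPM (median 193) on the restricted diet, with most values shared by both ranges. The log2 fold change of Gclm was 0.23 ± 0.11 (edgeR, adjusted p = 0.1001), and the restricted mean was higher at 10 of 12 times. Without the restricted library of ZT20 in replicate 1 Gclm passed (edgeR, adjusted p = 0.0450).

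The regulators differed little between the diets over all libraries. Keap1 (FBgn0038475) ranged from 13.2 to 29.9 CPM (median 22.1) on the control and from 15.8 to 32.9 CPM (median 23.6) on the restricted diet, with a log2 fold change of 0.12 ± 0.08 (edgeR, adjusted p = 0.261) and a 95% interval from -0.04 to 0.28. The gene cnc (FBgn0262975) ranged from 182 to 282 CPM (median 233) on the control and from 170 to 329 CPM (median 244) on the restricted diet, with a log2 fold change of 0.06 ± 0.07 (edgeR, adjusted p = 0.572) and a 95% interval from -0.08 to 0.19. The sign of cnc turned on the log2(TPM + 1) scale (-0.05). Exons of cnc overlap those of Irk1 and CG46310, both on the opposite strand, and CG46310 is absent from the deposited tables. The sources used here do not say whether reads kept strand, so reads from the shared bases cannot be told apart. The cnc row also sums the transcripts of all forms of the gene, of which CncC is 1, and changes in the amount or location of the proteins were not measured.

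The replicate series gave unequal numbers of diet calls. Taken alone, replicate 1 called 0 of the 9 members by edgeR (3 at an unadjusted p under 0.05, Sod3, Keap1 and cnc), where the test called 0.0199% of all genes. Replicate 2 alone called 6 of the 9, namely Sod1, Sod2, Sod3, Cat, Jafrac1 and Gclm, where it called 42.8% of all genes. The interaction of diet with replicate number called 1 member, Keap1, and 9.46% of all tested genes, so that 1 of 9 is close to the share of the whole table. These are within-series values of the same contrast, and the labels do not say whether a series was a separate day or batch.

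Sod1 was called in replicate 2 alone and not in replicate 1 alone. Its median was 702 CPM on the control and 764 CPM on the restricted diet in replicate 1, and 962 and 1353 CPM in replicate 2. The log2 fold changes were 0.09 ± 0.14 in replicate 1 and 0.54 ± 0.08 in replicate 2 (edgeR, adjusted p = 0.738 and 0.000786), and their difference of 0.43 ± 0.17 did not pass the test (edgeR, adjusted p = 0.1002). Sod2 had changes of 0.06 and 0.27, Gclm of 0.05 and 0.36, Cat of 0.22 and 0.41, Jafrac1 of -0.11 and -0.39, and Sod3 of -0.44 and -0.71 in replicates 1 and 2. For these genes the sign was the same in both series.

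Keap1 had opposite signs in the series. Its median was 21.4 CPM on the control and 25.5 CPM on the restricted diet in replicate 1, and 23.3 and 21.1 CPM in replicate 2. The log2 fold changes were 0.37 ± 0.10 and -0.13 ± 0.06 (edgeR, adjusted p = 0.203 and 0.132), and the difference between them was -0.49 ± 0.14 (edgeR, adjusted p = 0.0211). When both marker scores were in the fit that difference was -0.56 (edgeR, adjusted p = 0.0428). The changes of cnc ran the same way, 0.22 ± 0.09 in replicate 1 and -0.13 ± 0.09 in replicate 2, with a difference of -0.34 ± 0.13 that did not pass the test (edgeR, adjusted p = 0.0921). Neither gene was called in either series alone.

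**Figure D2:**
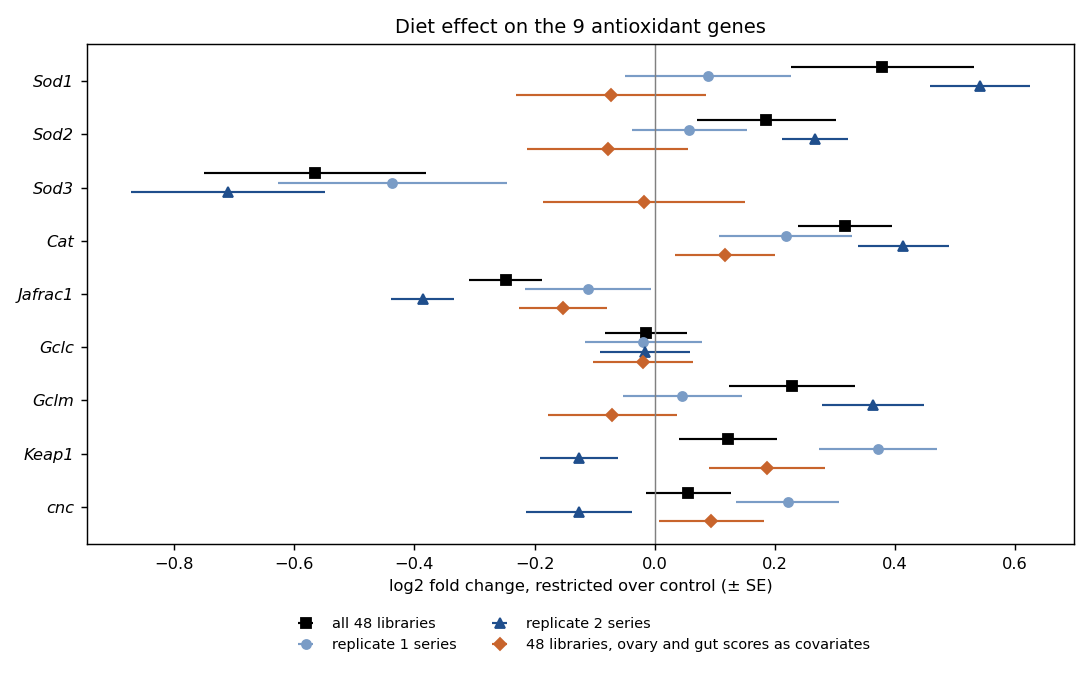
Log2 fold change of the 9 genes, restricted over control, with its standard error, in all 48 libraries, in each replicate series of 24 libraries and in all libraries with the marker scores as covariates. Keap1 lies at 0.37 in replicate 1 and at -0.13 in replicate 2, and with the scores Sod3 moves from -0.57 to -0.02.

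The levels of 6 members moved with the ovary score across the 48 libraries. A total of 18 relations was computed, of the 9 genes with the ovary score and with the gut score. Permutations over the 48 libraries shuffled across diets, series and times, and those within a series across diets and times. The ovary score differed between diets and series, so p also reflects group differences and does not test the relation within a diet. Sod3 had a Pearson r of 0.81 and a Spearman rho of 0.82 (permutation p = 1e-05 both times, which is the floor of 100000 permutations, and 4.5e-05 and 6e-05 adjusted over the 18 relations). Without the 2 libraries farthest from the median score r was 0.77, and within the series it was 0.76 in replicate 1 and 0.83 in replicate 2 (adjusted permutation p = 0.00108 and 6e-05). For Sod3 the relation thus held within each series.

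Cat ran the other way, with r = -0.71 and rho = -0.76 (permutation p = 1e-05 for each, adjusted 4.5e-05 and 6e-05) and r = -0.68 without the 2 farthest libraries. Within replicate 2 r was -0.82 (adjusted permutation p = 6e-05), and within replicate 1 it was -0.48 and did not pass (adjusted permutation p = 0.126). Jafrac1 had r = 0.57 and rho = 0.60 (permutation p = 4e-05 and 3e-05, adjusted 0.000144 and 0.000135), and 0.53 without the 2 farthest libraries. Its r was 0.51 within replicate 1 and 0.71 within replicate 2 (adjusted permutation p = 0.114 and 0.000405). Sod1 had r = -0.63 and rho = -0.62 (permutation p = 1e-05 for each, adjusted 4.5e-05 and 6e-05), and -0.60 without the 2 farthest libraries. Within replicate 1 it was -0.30 and did not hold (adjusted permutation p = 0.294), and within replicate 2 it was -0.84 (adjusted permutation p = 6e-05).

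Gclm had r = -0.59 and rho = -0.50 (permutation p = 1e-05 and 0.00031, adjusted 4.5e-05 and 0.00112), r = -0.60 without the 2 farthest libraries, and -0.42 and -0.56 within replicates 1 and 2 (adjusted permutation p = 0.149 and 0.0133). Sod2 had r = -0.43 and rho = -0.42 (permutation p = 0.00223 and 0.00294, adjusted 0.00669 and 0.00882) and -0.40 without the 2 farthest libraries. The relation of Sod2 did not hold within both series, where its sign differed within the series, 0.14 in replicate 1 and -0.66 in replicate 2 (adjusted permutation p = 0.624 and 0.00151). Gclc, Keap1 and cnc had r of -0.11, 0.02 and 0.02 with the ovary score, with adjusted permutation p of 0.879, 0.967 and 0.967. Within the diets, given here with no test, the signs of Keap1 and cnc were opposite, with r of -0.39 on the control and 0.51 on the restricted diet for Keap1 and of -0.42 and 0.28 for cnc. Gclc had -0.45 and -0.03, and Sod2 -0.02 and -0.55. In the other 5 genes the sign was the same on both diets, with r of 0.68 on the control and 0.89 on the restricted diet for Sod3, -0.67 and -0.64 for Cat, 0.47 and 0.40 for Jafrac1, -0.46 and -0.64 for Sod1, and -0.53 and -0.59 for Gclm. No member passed with the gut score over the 48 libraries, where the smallest adjusted permutation p was 0.287.

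When the ovary and gut scores entered as covariates the diet test called 0 of the 9 members by edgeR (1 at an unadjusted p under 0.05, Jafrac1), where it called 0.0596% of all genes. The change of Sod3 was -0.02 ± 0.17, that of Cat 0.12 ± 0.08, that of Jafrac1 -0.15 ± 0.07 and that of Sod1 -0.07 ± 0.16 (edgeR, adjusted p = 0.983, 0.668, 0.589 and 0.904). The score itself differed between the diets, by more in replicate 2 than in replicate 1, so that in replicate 2 the diet and the ovary score cannot be told apart.

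**Figure D3:**
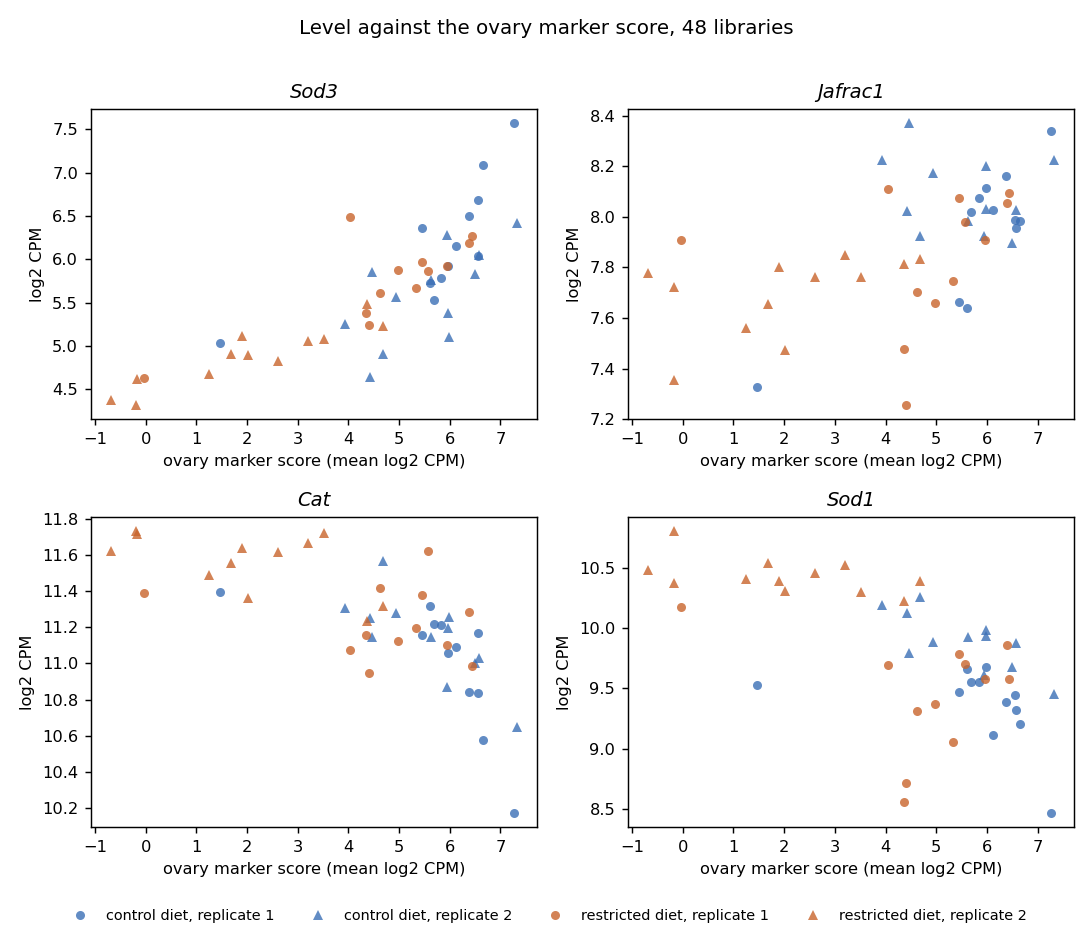
Log2 CPM of Sod3, Jafrac1, Cat and Sod1 in each of the 48 libraries against the ovary score (mean log2 CPM of 11 ovary markers), with diet in colour and replicate series as the symbol. Sod3 rises with the score (r = 0.81) and Cat falls (r = -0.71), and restricted libraries of replicate 2 hold most of the low scores.

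Between members, 6 pairs were compared across the 48 libraries. The permutations shuffled libraries in the same way, so here too p does not test a relation within a diet. Sod1 and Sod2 were the closest, with r = 0.88 and rho = 0.89 (permutation p = 1e-05 for each, adjusted over the 6 pairs 3e-05 and 2e-05), 0.87 without the 2 farthest libraries, and 0.69 and 0.77 within replicates 1 and 2. Sod1 and Cat had r = 0.75 and rho = 0.73 (permutation p = 1e-05 for each, adjusted 3e-05 and 2e-05), 0.73 without the 2 farthest, and 0.60 and 0.91 within the series. Keap1 and cnc had r = 0.57 and rho = 0.60 (permutation p = 2e-05 and 1e-05, adjusted 4e-05 and 2e-05), 0.51 without the 2 farthest libraries, and 0.55 and 0.61 within the series. These relations had the same sign and an adjusted permutation p of at most 0.00783 in each series.

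Sod3 and Jafrac1 rose and fell together, with r = 0.52 and rho = 0.53 (permutation p = 0.00013 and 0.00022, adjusted 0.000195 and 0.00033), 0.48 without the 2 farthest libraries, and 0.62 and 0.63 within the series. Cat and Jafrac1 were inversely related, with r = -0.43 and rho = -0.45 (permutation p = 0.00228 and 0.00134, adjusted 0.00274 and 0.00161) and -0.37 without the 2 farthest libraries. Within replicate 1 that relation did not pass (r = -0.35, adjusted permutation p = 0.111), and within replicate 2 r was -0.61 (adjusted permutation p = 0.00186). The subunits Gclc and Gclm had r = -0.17 and rho = -0.20 (permutation p = 0.238 and 0.181, adjusted 0.238 and 0.181), r = -0.11 without the 2 farthest libraries, and -0.11 and 0.01 within the series. Within the control and the restricted diet r was 0.79 and 0.92 for Sod1 with Sod2, 0.78 and 0.74 for Sod1 with Cat, 0.74 and 0.47 for Keap1 with cnc, and 0.23 and 0.60 for Sod3 with Jafrac1. For Cat with Jafrac1 it was -0.38 and -0.08, and for Gclc with Gclm it changed sign, 0.18 and -0.38. Libraries share their scaling and their cell makeup, and its part in these relations was not tested.

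Each member was also set against 6288 other tested genes with a symbol and a mean of at least 10 CPM, by the Pearson correlation of log2 CPM over the 48 libraries. The values are a description and carry no test. The genes most like Sod1 were Prx5, a peroxiredoxin (r = 0.96), and UQCR-Q, a subunit of respiratory complex III (0.96). Those most like Sod2 were ATPsyndelta and ATPsyngamma, subunits of the mitochondrial ATP synthase (0.97 each). Sod3 was most like CG1103 (0.94) and cpb, a subunit of the actin capping protein (0.93). Cat was most like Fatp1, a fatty acid transport protein (0.92), and CG6178 (0.91). Jafrac1 was most like the glutathione S-transferase GstD1 (0.81) and the kinase lic (0.78), Gclc like CG16953 (0.78) and the kinase Pkn (0.76), and Gclm like CG14777 (0.88) and CG3719 (0.85). Keap1 was most like CG42324 (0.78) and PhKgamma, a subunit of phosphorylase kinase (0.73), and cnc like the RNA-binding protein gene ps (0.84) and AGO1 of the microRNA pathway (0.78).

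A daily rhythm was tested by fitting each diet a curve with a period of 24 h. On the control diet 0 of the 9 genes passed by edgeR (Cat and Gclm had an unadjusted p under 0.05), where the test called 1.34% of all genes, and DESeq2 and limma called 0 of the 9 as well. On the restricted diet 0 passed by edgeR (Gclc and Gclm had an unadjusted p under 0.05), where it called 1.15% of all genes. DESeq2 and limma on log2 CPM called 0 there as well, whereas limma on log2(TPM + 1) and log2(TPM + 0.1) called 1, Gclm (adjusted p = 0.0467 and 0.0470), among 63 and 61 genes called in all. With the replicate number in the fit edgeR also called Gclm on the restricted diet (adjusted p = 0.0298). The rhythms of the diets differed for 0 of the 9 genes (0 at an unadjusted p under 0.05), where that test called 0.0199% of all genes.

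A further test, added after the data were seen, averaged the cosine and sine terms of both diets. In it 1 of the 9 genes passed, Gclm, where the test called 4.47% of all genes. The mean of Gclm over both diets was lowest at ZT2 (141 ± 24.6 CPM, SD, 4 libraries) and ZT4 (144 ± 40.5) and highest at ZT16 (275 ± 92.9) and ZT18 (264 ± 52.0). On each diet ZT16 and ZT18, both in the dark phase, had the highest means. At ZT16 the diet means were 233 CPM on the control and 317 CPM on the restricted diet. The averaged amplitude, from mean to peak, was 0.34 on the log2 scale peaking at ZT 16.0 (edgeR, adjusted p = 0.0130).

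The fitted curves of Gclm were close in amplitude and in peak time on both diets. A least-squares fit to log2 CPM gave an amplitude of 0.29 ± 0.11 (SE) and a peak at ZT 15.9 ± 1.46 h on the control diet, and 0.35 ± 0.11 and ZT 15.8 ± 1.22 h on the restricted diet. The difference between the diets did not pass (edgeR, unadjusted p = 0.881, adjusted p = 1.00). In replicate 2 alone the amplitude was 0.40 peaking at ZT 16.3 (edgeR, adjusted p = 0.01003, beside 1.16% of all genes called), and in replicate 1 alone it was 0.25, peaking at ZT 15.1, and did not pass (edgeR, adjusted p = 0.359, beside 0.735% called). The call was also lost when ovary and gut scores entered as covariates (amplitude 0.27, edgeR, adjusted p = 0.0741, beside 2.37% called) and with time as a factor in place of the cosine (edgeR, adjusted p = 0.813).

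**Figure D4:**
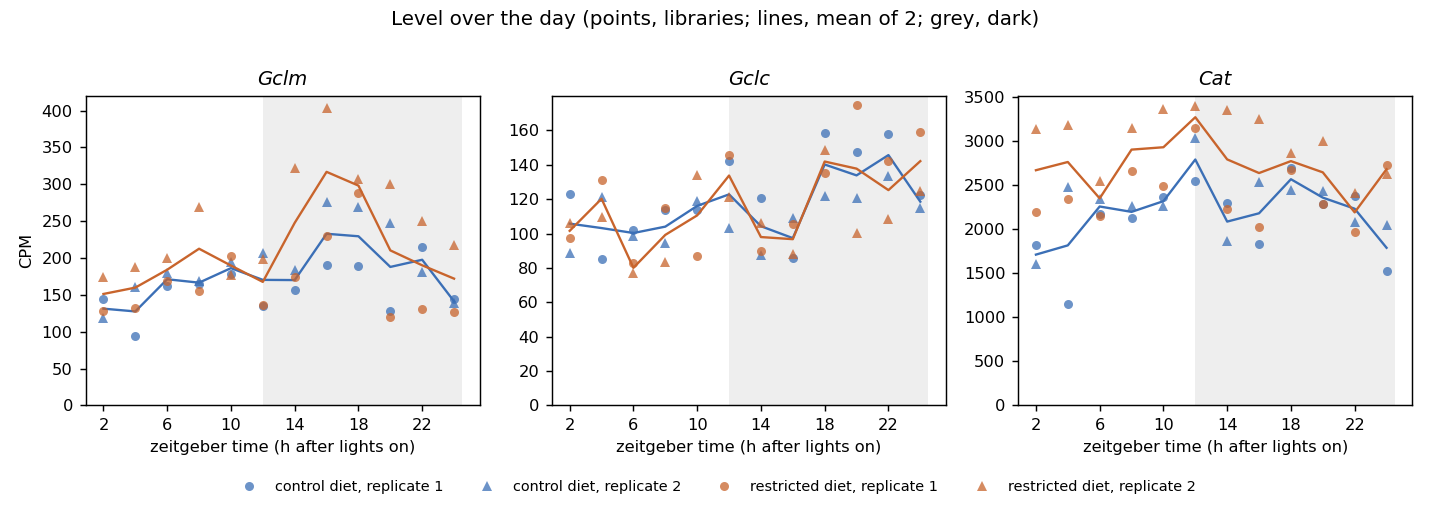
CPM of Gclm, Gclc and Cat against zeitgeber time, with each library as a point, the mean of the 2 libraries of a diet and time as a line, and the dark phase in grey; the axes start at 0. The mean of Gclm is highest at ZT16 and ZT18 on both diets, and the other genes show no curve that passed the test. In replicate 1 on the control diet the highest Gclm library is that of ZT22 (215 CPM). In each other series and diet it is that of ZT16 or ZT18.

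Gclc, the catalytic partner, had an averaged amplitude of 0.19 peaking at ZT 20.0 and did not pass (edgeR, adjusted p = 0.0956). Its mean over both diets was lowest at ZT6 (90.2 ± 12.0 CPM, SD, 4 libraries) and highest at ZT18 (141 ± 15.9 CPM). Without the control library of ZT16 in replicate 1 it passed narrowly (edgeR, adjusted p = 0.0499). Cat had an averaged amplitude of 0.15 peaking at ZT 13.1 (edgeR, adjusted p = 0.177). For the other 6 genes the averaged amplitude ran from 0.01 for Sod2 to 0.28 for Sod3, and the smallest adjusted p was 0.285, for Jafrac1 (edgeR).

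A list of 38 related genes gives the wider pathway. All 38 were in the tables and 34 were tested; Sodq, TrxT, Trxr2 and DJ-1alpha fell under the filter on low counts. On the restricted diet 9 rose and 2 fell, which is 32.4% of those tested, beside 25.8% of all tested genes. The median log2 fold change was 0.16. Among the genes that passed, Duox, Ggt-1 and Rsod had the largest changes, and the genes that rose were spread over 6 of the 8 roles.

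Of 4 tested relatives of superoxide dismutase and catalase 3 rose. These were Irc, an immune-regulated catalase (0.33 ± 0.09, edgeR, adjusted p = 0.0114), Rsod, a gene related to superoxide dismutase with low levels (0.45 ± 0.12, edgeR, adjusted p = 0.00980), and Ccs, the copper chaperone that loads Sod1 (0.20 ± 0.07, edgeR, adjusted p = 0.0420). Rsod had medians of 2.50 and 3.70 CPM on the control and restricted diet. Among 7 tested peroxiredoxins Prx3, a mitochondrial member, rose (0.21 ± 0.08, edgeR, adjusted p = 0.0422), and the other 6 did not pass. Prx2540-1, Prx2540-2 and CG12896 are near copies whose reads an estimated count can divide, and their single values are uncertain.

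In the glutathione system Grx1, a glutaredoxin, rose (0.23 ± 0.08, edgeR, adjusted p = 0.0315), and Ggt-1, a gamma-glutamyltransferase that cleaves glutathione, fell by 0.60 ± 0.14 on the log2 scale (edgeR, adjusted p = 0.00622). Ggt-1 had a median of 78.0 CPM on the control and 48.4 CPM on the restricted diet, with ranges that overlapped. Gss1 and Gss2, the glutathione synthetase genes, had equal estimated counts in all 48 libraries (within 0.01), so that they are 1 measurement. Neither passed (0.17 ± 0.10, edgeR, adjusted p = 0.209).

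Both methionine sulfoxide reductases, which repair oxidised methionine, rose. MsrA changed by 0.43 ± 0.16 and SelR by 0.16 ± 0.06 (edgeR, adjusted p = 0.0477 and 0.0384). Of 6 tested regulators and stress adaptors maf-S, whose protein pairs with CncC, rose by 0.33 ± 0.08 (edgeR, adjusted p = 0.00588), from a median of 41.4 CPM to one of 50.2 CPM. Cul3, Sesn, ref(2)P, DJ-1beta and the CncC target GstD1 did not pass. Of 5 suppliers of NADPH, the electron donor for glutathione and thioredoxin, Idh rose (0.24 ± 0.08, edgeR, adjusted p = 0.0254). In the thioredoxin system 0 of 3 tested genes passed by edgeR, and Trx-2 and Srx, with changes of 0.11 and 0.20, had an unadjusted p under 0.05.

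Duox, a dual oxidase that produces hydrogen peroxide, fell by 0.77 ± 0.19 on the log2 scale (edgeR, adjusted p = 0.00642). Its median was 29.3 CPM on the control and 19.5 CPM on the restricted diet, and the restricted mean was lower at all 12 times. The other oxidase, Nox, had a change of -0.79 ± 0.40 that did not pass (edgeR, adjusted p = 0.139). When ovary and gut scores entered as covariates 0 of the 34 passed by edgeR (0 at an unadjusted p under 0.05), and Duox had a change of -0.13, Ggt-1 one of -0.17 and maf-S one of 0.06. In replicate 1 alone 0 of the 34 passed (5 at an unadjusted p under 0.05) and in replicate 2 alone 17, beside 0.0199% and 42.8% of all genes. On the log2(TPM + 1) scale 4 of the 11 kept an adjusted p under 0.05 by limma, namely maf-S, Irc, Ggt-1 and Duox. The calls of Grx1, SelR, Ccs, Prx3 and MsrA were lost in 6, 17, 25, 23 and 26 of the 48 fits that left out 1 library.

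**Figure D5:**
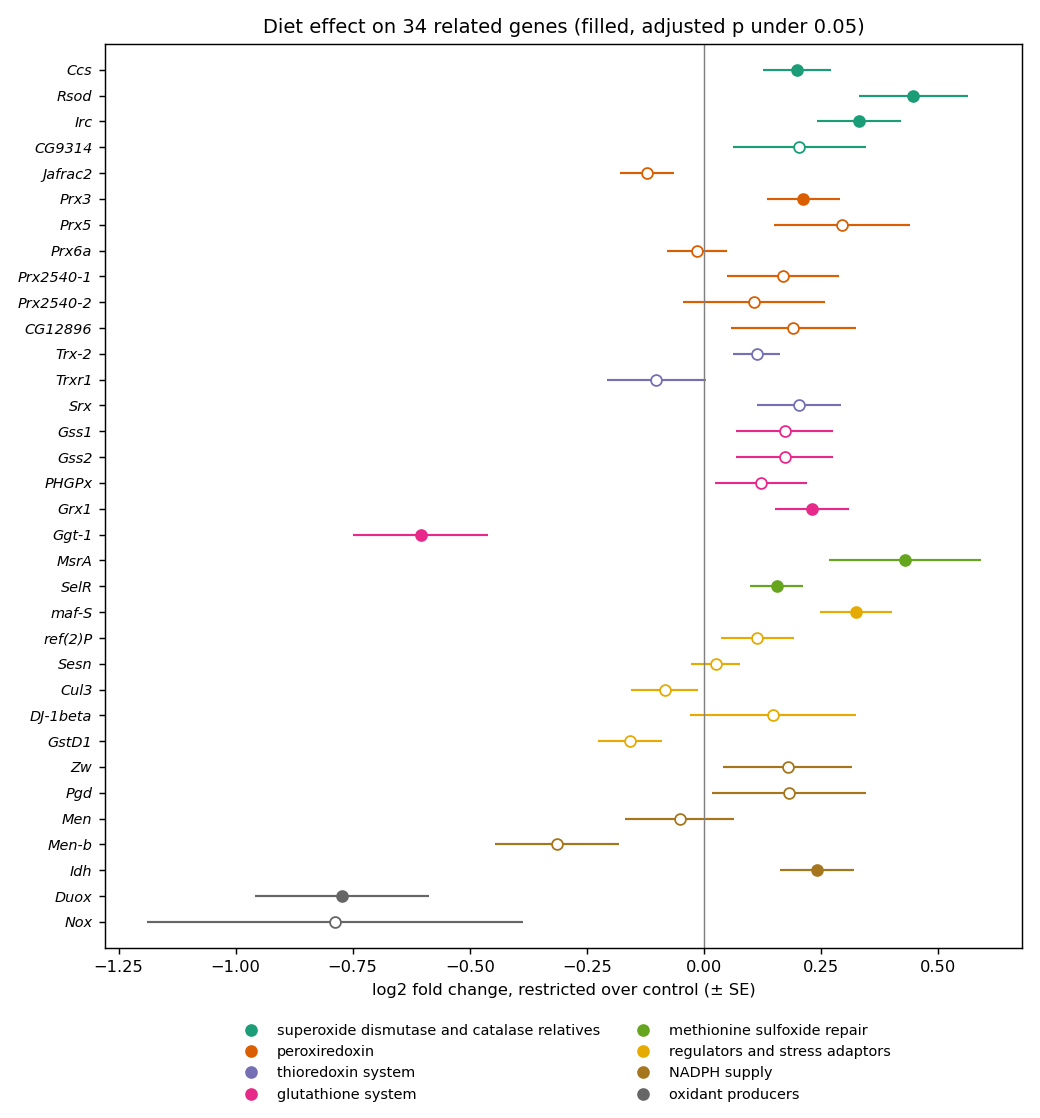
Log2 fold change, restricted over control, with its standard error for the 34 tested genes of the wider pathway in all 48 libraries, coloured by role and filled where the adjusted p is under 0.05 (edgeR). Of the 34, 9 filled points lie above 0 and 2, Ggt-1 and Duox, below it.

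None of the 34 genes passed the rhythm test on the control diet (6 at an unadjusted p under 0.05) or on the restricted diet (8) by edgeR, and none differed in rhythm between the diets (0 at an unadjusted p under 0.05). These tests called 1.34%, 1.15% and 0.0199% of all genes. With the diets averaged, in the test added after the data were seen, 6 of the 34 passed, beside 4.47% of all genes. Zw and Pgd, the dehydrogenases of the pentose phosphate pathway that make NADPH, had amplitudes of 0.53 and 0.45 with peaks at ZT 8.83 and ZT 9.47 (edgeR, adjusted p = 0.000897 and 0.0308). The autophagy adaptor ref(2)P had an amplitude of 0.31 with a peak at ZT 14.4, GstD1 one of 0.26 with a peak at ZT 8.23, Jafrac2 one of 0.17 with a peak at ZT 9.17, and Ccs one of 0.19, peaking at ZT 10.7 (edgeR, adjusted p = 0.00117, 0.00885, 0.0181 and 0.0474). These 6 peaks lay between ZT 8.23 and ZT 14.4, and that of Gclm at ZT 16.0. The call of Ccs was lost in 30 of the 48 fits that left out 1 library and in 7 of 13 other settings, and without the library rich in ribosomal RNA it had an adjusted p of 0.0544 (edgeR). Pgd was lost in 6 of the 48 fits, namely without control ZT20 or restricted ZT20, ZT22 or ZT24 of replicate 1 or without control or restricted ZT8 of replicate 2, where its largest adjusted p was 0.0607 (edgeR). The other 4 passed in each of the 48. With time as a factor none of the 6 passed, and in the series taken alone Zw passed in both, the other 5 in neither. GstD1 and Jafrac2 were also lost on both TPM scales.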

How the data were processed

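The authors deposited estimated counts per gene and TPM per gene for 48 libraries, and the submitters' processing notes name kallisto 0.44.0 and FastQC. The sources used here state neither annotation, genome build nor strandedness, nor how transcripts were summed to genes, and coordinates are left out. Estimated counts, 88.2% of them whole within 0.01, were rounded to whole numbers. Genes were kept with filterByExpr (minimum count 10, 24 diet and time groups). The 10070 genes kept were tested with edgeR 4.0.16 in R 4.3.3 (TMM, quasi-likelihood test, threshold 0.05 after Benjamini-Hochberg adjustment across these genes). Diet was tested with time as a factor, and rhythm with cosine and sine terms of period 24 h for each diet. Standard errors of log2 fold changes are the fold change over the root of F. Log2 CPM used a prior count of 2. Alternatives used DESeq2 1.42.0 and limma 3.58.1, log2(TPM + 1) and log2(TPM + 0.1), and marker scores as covariates. Fits that left out 1 library kept the genes tested, the TMM factors and the negative binomial dispersions of the full fit. The average of the rhythms over both diets was added after the data were seen. Steps were checked on simulated counts. The members, the lists of related genes and markers and the tests were chosen with earlier results of these data known. All 9 members are named, with related genes that passed a test (up to 12 for diet and 6 for each rhythm test, smallest p first) and, for each member, the 2 genes most like it among those with at least 10 CPM; Men was named after its values were seen. The ovary marker nos was not analysed here, and FASN3 was not used here. Replicates are biological per the labels' design text.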

Additional observations from a re-analysis of the deposited data

Results flagged for a closer look

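In 1 of the 9 members, Keap1, and 4 of the 34 related genes the diet effect differed between the replicate series by the interaction of diet with replicate number (edgeR quasi-likelihood test, Benjamini-Hochberg adjustment), beside 9.46% of all tested genes. The related genes were Ggt-1, Duox, maf-S and Men, of which Men is given among the other observations. The difference, replicate 2 minus replicate 1, was -0.49 on the log2 scale for Keap1 (adjusted p = 0.0211), with changes of 0.37 and -0.13 in replicates 1 and 2. For Ggt-1 it was -0.82 (adjusted p = 0.0414), with changes of -0.17 and -1.04, and for Duox -1.09 (adjusted p = 0.0224), with changes of -0.26 and -1.40. For maf-S it was 0.57 (adjusted p = 0.000792), with changes of 0.02 and 0.59. The ovary score fell from 5.53 to 2.01 between the diets in replicate 2 and from 5.80 to 4.79 in replicate 1, and with the marker scores as covariates the difference was -0.56 for Keap1, 0.42 for maf-S, -0.32 for Ggt-1 and -0.38 for Duox (edgeR, adjusted p = 0.0428, 0.0268, 0.492 and 0.411).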

How the results depend on the processing

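No direction of a called result reversed in the settings run. The diet test called 2601 genes and 3 members, and with the marker scores 6 and 0, in replicate 1 alone 2 and 0, and in replicate 2 alone 4310 and 6. Adding the replicate block gave 3824 genes (38% of those tested) and 6 members, Sod1, Sod2 and Gclm being added (edgeR, adjusted p = 0.00769, 0.0263 and 0.0361). The deviations of same-numbered libraries had a correlation over 0.1 at 8 of 12 times (range -0.16 to 0.46), so the numbers were not taken to pair the libraries; with the block 1 member, Gclm, was rhythmic on the restricted diet (edgeR, adjusted p = 0.0298), 14 genes differed in rhythm and 732 were rhythmic on average. DESeq2 and the fit with no time term also called Sod1 (adjusted p = 0.0382 in each). Rhythmic genes on the control diet numbered 135, and 58 with limma on log2 CPM, 42 on log2(TPM + 1), 43 on log2(TPM + 0.1), 60 with the scores, 11 and 22 in replicates 1 and 2, and 25 with time as a factor. On the restricted diet they numbered 116, and in the same order 57, 63 and 61 (1 member, Gclm, on both TPM scales), 10 and 67 in the replicates, 45 with time as a factor and 178 with no filter. Rhythm differed for 2 genes, for 7 with DESeq2, 15 with no filter, 21 with the scores, and 0 with limma on log2 CPM (113 at an unadjusted p under 0.05), on either TPM scale (143 and 142), in either replicate alone (371 and 329) or with time as a factor (134). The average called 450 genes and 1 member, and 243 with limma on log2 CPM, 233 on either TPM scale, 239 genes and 0 members with the scores, 74 and 0 in replicate 1, 117 in replicate 2 and 39 and 0 with time as a factor. The series difference was called for 953 genes and 1 member, for 2 members with DESeq2 (Sod1 added) and for 297 genes with the scores. Leaving out 1 library in turn gave 1759 to 2966 genes and 2 to 5 members for diet, 79 to 213 genes for the control rhythm (lowest without control ZT14 and highest without control ZT16, both of replicate 1), 83 to 152 for the restricted, 0 to 16 for the rhythm difference, 352 to 632 genes and 1 to 2 members for the average, and 708 to 1635 genes and 1 to 3 members for the series difference. Members rose to 5 without the restricted library of ZT20 in replicate 1 and fell to 2 without the control library of ZT4 in replicate 1, which also gave the 1635 genes and 3 members (Sod1, Jafrac1 and Keap1). For that difference 2 members passed without restricted ZT12 in replicate 2 or ZT6 in replicate 1 (cnc added), ZT18 in replicate 1 (Sod1 added) or ZT22 in replicate 1 (Jafrac1 added). Sod1 passed the diet test without control replicate 2 at ZT4, ZT12, ZT16 or ZT20 or restricted replicate 1 at ZT4, ZT8, ZT12, ZT14, ZT16, ZT20, ZT22 or ZT24. Without the library rich in ribosomal RNA 2735 genes and 3 members were called for diet. Each time has 2 libraries per diet, so single times were not tested, and at 139 counts or more counting error is small beside the spread between libraries.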

Other observations

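Of the wider pathway, 4 of 34 tested genes had a diet effect that differed between the replicate series by edgeR, beside 9.46% of all tested genes. The fourth beside Ggt-1, maf-S and Duox was the malic enzyme gene Men, a source of NADPH, named here after its values were seen. Its log2 fold change was 0.37 in replicate 1 and -0.41 in replicate 2 (edgeR, adjusted p of the difference 0.00887). Men had a high mean level of 834 TPM, and Idh, the cytosolic isocitrate dehydrogenase that also makes NADPH, one of 973 TPM. Of the 4 genes under the filter, Trxr2 was listed at a mean of 0 TPM and Sodq, TrxT and DJ-1alpha had means of 0.240, 0.0678 and 0.494 TPM.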
